A study of Bos taurus with 179 samples.

Results

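The genes described here are respiratory-chain genes of the bovine mitochondrial genome that could be named in the deposited read counts: COX1 (ENSBTAG00000043561), COX2 (ENSBTAG00000043556), ATP6 (ENSBTAG00000043584) and ATP8 (ENSBTAG00000043564). They were chosen by name. 6 names were looked for among the pairs of gene identifier and symbol that the study's supplementary gene lists give, and 4 of them were paired, out of 21218 gene identifiers in the count table. The copies of those lists used here were shortened. COX3 and CYTB were not paired in the shortened copies and were not analysed here. The symbols of 3608 identifiers were known in this way.

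The study asked how the transcriptome of bovine oocytes changes while they grow, and sequenced single oocytes of known diameter. The oocytes came from ovaries of an abattoir, were freed from late secondary to early antral follicles or aspirated as fully grown oocytes, and the labels set the groups apart by diameter and replicate. Fully grown oocytes were aspirated first and growing ones were freed later by slicing. The way of collection therefore cannot be told apart from size, and no label gives it for an oocyte. The dissection medium held cilostamide, a phosphodiesterase inhibitor. No label ties an oocyte to an animal, so that each p-value measures the spread between library sums and not between cows. The 165 analysed oocytes fell into 8 size groups, with 21 oocytes < 60 μm, 25 of 60-69 μm, 23 of 70-79 μm, 24 of 80-89 μm, 21 of 90-99 μm, 18 of 100-109 μm, 19 of 110-119 μm and 14 > 120 μm in diameter. They were sequenced as 2 replicates that differ in read length, replicate 1 with 97 oocytes and reads of 150 bp and replicate 2 with 68 oocytes and reads of 75 bp. The replicates were unevenly spread over sizes: 18 of the 21 oocytes < 60 μm belonged to replicate 2, and 10 of the 14 oocytes > 120 μm to replicate 1.

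Most proteins of the mitochondrion are encoded in the nucleus, but a small set of core respiratory-chain subunits is encoded by the mitochondrial genome and is translated inside the organelle. COX1 and COX2 are catalytic core subunits of cytochrome c oxidase (complex IV), which passes electrons to oxygen. ATP6 and ATP8 belong to the membrane part of ATP synthase (complex V), and ATP6 forms part of its proton channel. The mitochondrial genome is transcribed as long precursors that are cleaved into messenger RNAs with short poly(A) tails, which an oligo(dT) primer can capture. Growing oocytes build up a large store of mitochondria, which the embryo inherits from the oocyte.

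In the RefSeq annotation of another bovine assembly, COX1, COX2, ATP8, ATP6 and COX3 neighbour each other in that order, ATP8 and ATP6 overlap, and ATP6 and COX3 adjoin. How reads in the overlap were counted is not given in the sources used here. ATP8 also stood on 2 lines of the count table under the same identifier, with different counts. Both lines were summed for ATP8, and they are described apart where they differ, because the sources used here do not say which gene model each line counts. The second ATP8 line could hold counts of the ATP6 gene model, and the line of the ATP6 identifier could hold counts of COX3. The count table does not settle this. Every value given for ATP8 or ATP6, their calls and their ratio included, is therefore the value of lines with that identifier and may belong to a neighbouring gene.

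Shares below are of the counts of an oocyte, or of oocytes pooled per size group and replicate. The values of edgeR are of counts scaled by its TMM method and are not plain shares. In both cases a lower value cannot be told apart from more RNA of other genes in the same oocytes. An oocyte had between 277126 and 8038061 counts (median 1763520), and all 4 genes were counted in all 165 oocytes. The median total was 2563427 < 60 μm, 923622 at 100-109 μm and 1457609.5 > 120 μm. The oocyte genes BMP15, BTG4, CPEB1 and AURKC were counted in all 165 oocytes, and their summed level ran from 3698 to 11163 CPM, which are counts scaled to the total of the oocyte, with medians of 4536 CPM < 60 μm and 8600 CPM > 120 μm. Of 10 granulosa or cumulus cell markers looked for, 3 were paired, and the others, AMH, CYP19A1 and FOXL2 among them, were not analysed here. The 3, AMHR2, FSHR and CYP11A1 (a steroid synthesis gene that theca cells use too), were together at 0 in 105 oocytes and reached at most 14.2 CPM. They were at 0 in 8 of 21 oocytes < 60 μm (median 0.689 CPM) and in 12 of 14 oocytes > 120 μm (median 0 CPM). The 1 of them with enough counts to be fitted had a log2 difference of 0.16 between these groups, larger minus smaller oocytes. Its slope was -0.11 per 10 μm, and neither value passed edgeR's test. At levels this close to 0 no direction can be read from these markers. Of the theca and stroma genes, COL1A1, COL3A1, DCN and CYP17A1 were counted in at most 13 oocytes each, whereas COL1A2 and ACTA2 were counted in 143 oocytes each. The summed theca and stroma level had a median of 5.91 CPM < 60 μm and 13.9 CPM > 120 μm. CSF1R, a macrophage receptor gene, was counted in all 165 oocytes at a mean of 85.9 CPM, and CD68 was counted in 64 oocytes, while CD14 and C1QB, also macrophage genes, were at 0 in 164 and 163 oocytes. The endothelial genes CDH5, CLDN5 and CD34 were together at 0 in 121 oocytes. Along diameter AURKC, BMP15 and BTG4 rose by 0.21 ± 0.03, 0.15 ± 0.04 and 0.13 ± 0.04 log2 units per 10 μm, and COL1A2 rose by 0.27 ± 0.09 (edgeR's quasi-likelihood test, adjusted p = 2.52e-05, 0.00899, 0.0188 and 0.0205). CPEB1 and ACTA2 had slopes of 0.01 ± 0.04 and -0.15 ± 0.09 and did not pass (edgeR, adjusted p = 0.926 and 0.202). The part of these cell markers in the results was not tested. The authors had left out oocytes above a set share of reads on mitochondrial genes, which they describe as noncoding. The analysed oocytes may thus have been chosen in part on a measure close to the one described here. An analysed oocyte had 3.36% on these 4 genes, above that set share, so the 2 measures were not the same.

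The 4 genes together took 0.975% ± 0.536 (SD, n = 165) of the counts of an oocyte, from 0.126% through a median of 0.885% to 3.36%. In oocytes < 60 μm the lowest, median and highest summed shares were 0.721%, 1.43% and 2.38% (n = 21). In oocytes > 120 μm they were 0.148%, 0.507% and 0.963% (n = 14). The smallest oocytes were high and the largest ones low, with overlapping ranges. All 14 oocytes > 120 μm lay under the median of the oocytes < 60 μm, and 11 of them lay under the lowest of those oocytes. The mean was 1.52% ± 0.475 (SD, n = 21) < 60 μm and 0.533% ± 0.267 (SD, n = 14) > 120 μm, 2.86 times lower in the largest oocytes. Within replicate 1 the mean was 2.92 times lower (3 and 10 oocytes), and within replicate 2 it was 2.28 times lower (18 and 4 oocytes).

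**Figure D1:**
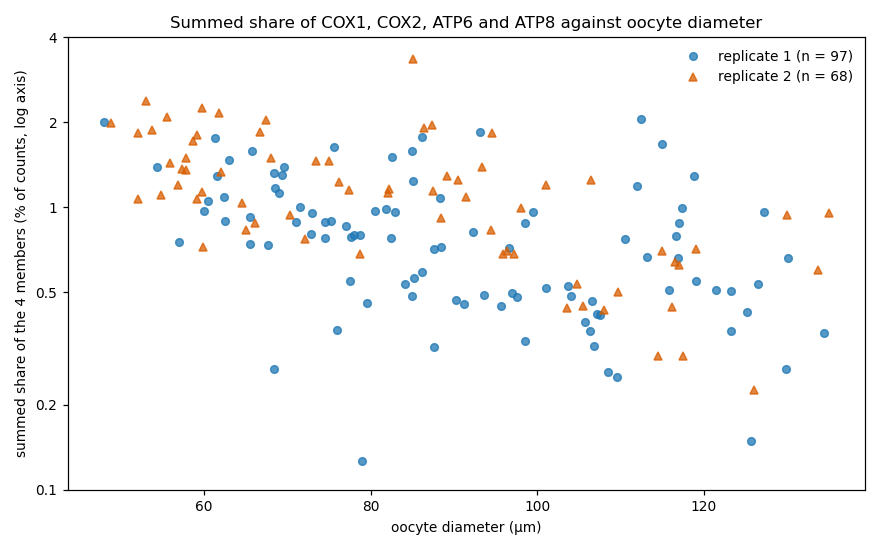
Summed share of COX1, COX2, ATP6 and ATP8 in the counts of each oocyte, in percent on a log axis, against oocyte diameter in μm, with a point per oocyte coloured by replicate (n = 165). The points fall from the upper left to the lower right and scatter widely at every diameter, between 0.126% and 3.36%.

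Between those ends the summed share did not fall in even steps. Its mean was 1.23% ± 0.436 (SD, n = 25) at 60-69 μm, 0.881% ± 0.349 (SD, n = 23) at 70-79 μm and 1.15% ± 0.648 (SD, n = 24) at 80-89 μm. It was 0.513% ± 0.272 (SD, n = 18) at 100-109 μm and 0.829% ± 0.450 (SD, n = 19) at 110-119 μm. When the groups were ordered by their means, no neighbours in that order differed by more than the larger of their SDs, and the same held for each of the 4 genes. Across oocytes, Pearson's r of the summed share with diameter was -0.50 after removal of the replicate means (n = 165), -0.41 within replicate 1 (n = 97) and -0.58 within replicate 2 (n = 68). The oocytes, each sequenced as its own library, share replicates, and depth moved with both measures: r of log10 total counts was -0.22 with diameter and 0.34 with the summed share. The part of depth in the relation was not tested.

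COX2 showed the widest separation. The lowest, median and highest shares of COX2 were 0.109%, 0.226% and 0.425% in oocytes < 60 μm (n = 21). In oocytes > 120 μm they were 0.0113%, 0.0482% and 0.102% (n = 14). All 21 small oocytes lay above all 14 large ones, and the same was true within each replicate. The mean share of COX2 was 0.225% ± 0.0813 (SD, n = 21) < 60 μm and 0.0533% ± 0.0238 (SD, n = 14) > 120 μm, 4.23 times lower in the largest oocytes. The share of COX2 had an r with diameter of -0.59 (n = 165), -0.54 in replicate 1 and -0.64 in replicate 2.

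COX1, the other oxidase subunit, was the most variable of the 4 genes, with a coefficient of variation of 77.5% over 165 oocytes against 61.3% for COX2, 57.8% for ATP8 and 50.8% for ATP6. Its lowest, median and highest shares were 0.162%, 0.477% and 1.58% in oocytes < 60 μm (n = 21), and 0.0309%, 0.134% and 0.477% in oocytes > 120 μm (n = 14). All 14 large oocytes lay under the median of the small ones, but 6 of them lay within the range of the small ones. The ratio of the mean shares, small over large, was 2.99 in all, 1.95 within replicate 1 and 2.08 within replicate 2. The highest COX1 share of all, 1.70% (exact 95% interval 1.68% to 1.72%, counting error only), was in an oocyte of 85.1 μm and not in the smallest ones. COX1 shares had an r with diameter of -0.36 (n = 165), -0.33 in replicate 1 and -0.39 in replicate 2.

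Counts were not corrected for gene length. In replicate 1 the pooled share of COX2 lay below that of ATP6 at 100-109 μm (0.0355% against 0.0446%) and > 120 μm (0.0390% against 0.0432%). By its mean over all oocytes, ATP6 had the lowest count share of the 4 genes. Its lowest, median and highest shares were 0.0698%, 0.117% and 0.249% in oocytes < 60 μm (n = 21), and 0.0174%, 0.0477% and 0.0852% in oocytes > 120 μm (n = 14). Of the small oocytes, 19 of 21 lay above every large one. Its mean share was 2.40 times lower in the largest oocytes. ATP8 shares were 0.243%, 0.582% and 1.03% in oocytes < 60 μm (n = 21), and 0.0886%, 0.245% and 0.438% in oocytes > 120 μm (n = 14). Here 16 of 21 small oocytes lay above every large one, and the mean share was 2.56 times lower in the largest oocytes. The r with diameter was -0.49 for ATP6 and -0.41 for ATP8 (n = 165), and within replicate 1 it was -0.41 for ATP6 and -0.26 for ATP8, and within replicate 2 it was -0.58 and -0.54.

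**Figure D2:**
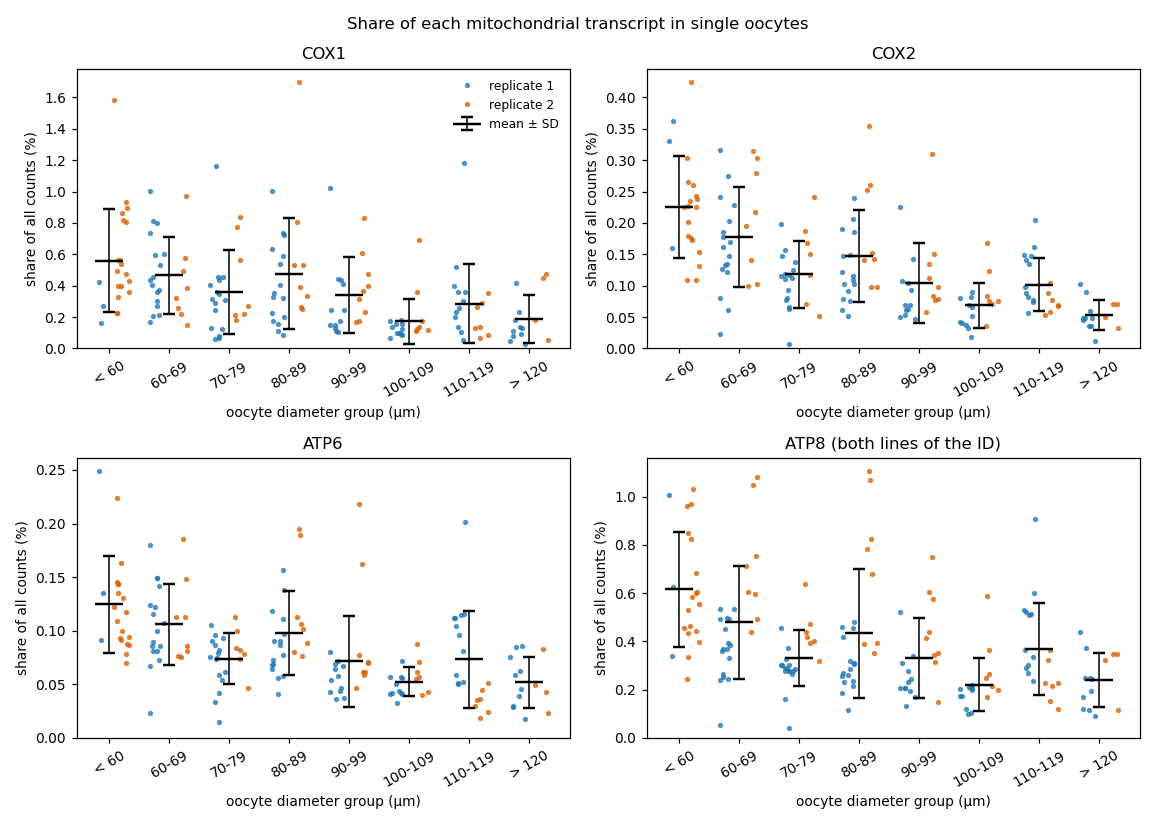
Share of each gene in the counts of an oocyte, in percent, by size group, with a panel each for COX1, COX2, ATP6 and ATP8. Points are oocytes coloured by replicate and bars are the group mean ± SD. Each panel is high < 60 μm, dips at 100-109 μm and is higher again at 110-119 μm, and in the COX2 panel the oocytes < 60 μm (0.109% to 0.425%) lie wholly above those > 120 μm (0.0113% to 0.102%).

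By rank of mean count share among all 21218 identifiers, ATP8 stood at place 2 in oocytes < 60 μm and at place 18 in oocytes > 120 μm. COX1 stood at places 5 and 28, and ATP6 at places 63 and 280. COX2 stood at place 16 in the smallest oocytes and between COX1 and ATP6 in the largest. All 4 genes thus stood at a later place in the largest oocytes than in the smallest.

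The question of whether shares differed between sizes was then put to counts summed per size group and replicate, 16 sums in all, of which a single deep oocyte supplied 52.9% at 100-109 μm replicate 1 and 46.6% at < 60 μm replicate 1, with edgeR's quasi-likelihood test, a replicate term and Benjamini-Hochberg adjustment over 14087 genes. A gene was called at an adjusted p below 0.05, and log2 differences are larger minus smaller oocytes, with standard errors. Along diameter, 18.1% of all genes tested were called as lower in larger oocytes and 14.8% as higher, and 3 of the 4 mitochondrial genes were called as lower. COX2 fell by 0.26 ± 0.05 log2 units per 10 μm (edgeR, adjusted p = 0.00063). ATP6 fell by 0.16 ± 0.05 log2 units per 10 μm (edgeR, adjusted p = 0.0115), and ATP8 by 0.15 ± 0.05 (edgeR, adjusted p = 0.0398). The slope of COX1 was -0.11 ± 0.06 log2 units per 10 μm and did not pass the test (edgeR, adjusted p = 0.165). The median slope of all genes was -0.02. The call of ATP8 was the least firm: it was kept in 2 of 16 fits that each left out 1 sum, those without 80-89 μm replicate 1 and without 110-119 μm replicate 1. COX1 was called without 110-119 μm replicate 1, with a slope of -0.16, and the call of ATP6 was lost without < 60 μm replicate 1, 110-119 μm replicate 2 or > 120 μm replicate 1. That of COX2 was kept in 16 of 16.

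Between oocytes < 60 μm and > 120 μm, 19.2% of all genes tested were called, 9.80% as lower and 9.36% as higher in the largest oocytes, and again COX2, ATP8 and ATP6 were called as lower. COX2 fell by 2.40 ± 0.44 log2 units, to 0.190 times its level in the smallest oocytes (edgeR, adjusted p = 0.00107). ATP8 fell by 1.46 ± 0.45 (edgeR, adjusted p = 0.0301) and ATP6 by 1.40 ± 0.44 log2 units (edgeR, adjusted p = 0.0324). COX1 had a difference of -0.82 ± 0.49 and did not pass (edgeR, adjusted p = 0.251). With each oocyte thinned to 250000 counts, so that deep oocytes weighed no more than shallow ones, COX1 passed too, at -0.97 (edgeR, adjusted p = 0.0450), and its slope along diameter passed at -0.14 (edgeR, adjusted p = 0.0214). With each sum left out in turn, the difference of COX1 ran from -1.44 to -0.32, the latter without < 60 μm replicate 2 (edgeR, adjusted p = 0.749), and it passed in 0 of 16 fits. The median difference of all genes was -0.12. Whether the genes differed from each other in their fall was not tested. COX2 was called in 16 of 16 fits that each left out 1 sum, ATP6 and ATP8 in 9 of 16 each. Without the replicate block all 3 calls were lost at folds of similar size, with COX2 at -2.33, ATP6 at -1.38 and ATP8 at -1.35 (edgeR, adjusted p = 0.0905, 0.265 and 0.371). Among the left-out sums, ATP6 and ATP8 lost their calls without < 60 μm replicate 1, either sum of 60-69 μm, 90-99 μm replicate 2 or either sum > 120 μm, ATP6 also without 80-89 μm replicate 2 and ATP8 without 90-99 μm replicate 1.

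Early and late growth were compared separately. From < 70 μm to 70-109 μm, where 9.50% of all genes were called, 4.37% as lower and 5.13% as higher, COX2 fell by 1.06 ± 0.25 log2 units (edgeR, adjusted p = 0.0112), a call that was lost without < 60 μm replicate 1 or without either sum of 60-69 μm. The differences of ATP8, ATP6 and COX1 were -0.81 ± 0.26, -0.71 ± 0.26 and -0.36 ± 0.29 (edgeR, adjusted p = 0.0589, 0.0876 and 0.468). ATP8 and ATP6 passed there without either sum of 110-119 μm, and ATP8 also without < 60 μm replicate 2 or 100-109 μm replicate 2. From 70-109 μm to oocytes of 110 μm and above, where 14.8% of all genes were called, 7.68% as lower and 7.08% as higher, the 4 differences lay between -0.53 and -0.03. In that later comparison 0 of 4 genes passed edgeR's test, 0 had an unadjusted p under 0.05, and 0 were called by DESeq2. This rested on 110-119 μm replicate 1: without that sum, COX1 was at -0.95, COX2 at -0.94 and ATP6 at -0.93, and all 3 passed (edgeR, adjusted p = 0.0301, 0.0295 and 0.00955), while ATP8 was at -0.65 (edgeR, adjusted p = 0.0888). Whether the earlier and the later differences of a gene differ was not tested.

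**Figure D3:**
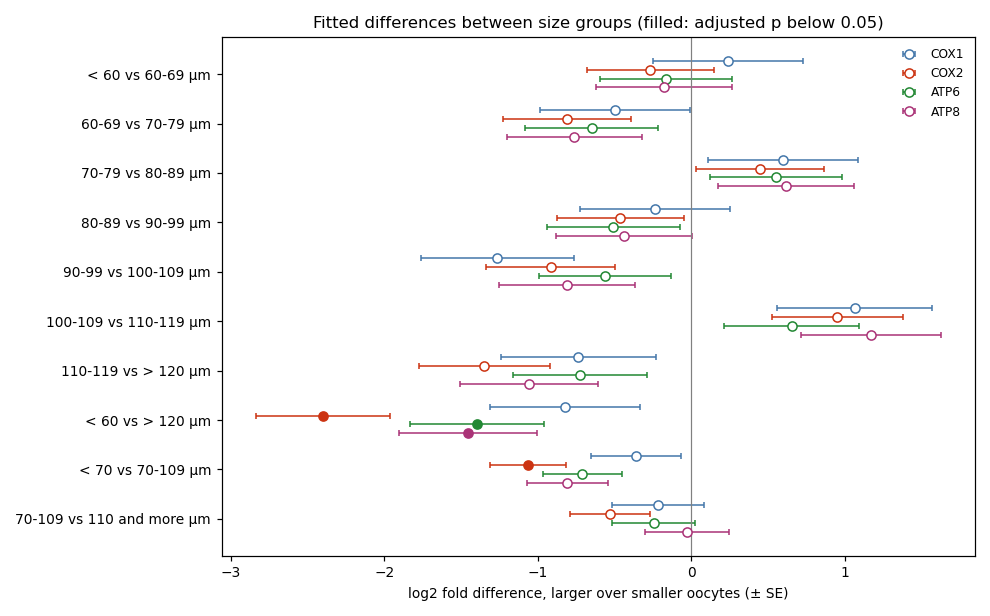
Log2 difference, larger minus smaller oocytes, with its standard error, for COX1, COX2, ATP6 and ATP8 in 10 comparisons of size groups, from edgeR on 16 sums. Filled points are called at an adjusted p below 0.05. These are COX2, ATP6 and ATP8 between < 60 μm and > 120 μm, and COX2 between < 70 μm and 70-109 μm, whereas the successive comparisons swing to both sides of 0 without a call.

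Between successive size groups the genes moved to both sides. Of 28 member tests in 7 successive comparisons, 0 were called by edgeR, 7 had an unadjusted p under 0.05, and DESeq2 called 1, ATP8 from 100-109 μm to 110-119 μm. In that step DESeq2 called 1967 of all 14087 genes, and 3667 genes and 3 of the 4 members had an unadjusted p under 0.05 in edgeR. Among all genes, edgeR called 0.0142% from < 60 μm to 60-69 μm, 3.88% from 100-109 μm to 110-119 μm and 0.00710% from 110-119 μm to > 120 μm. In each of the other 4 successive comparisons it called 0 genes, with 469 to 1432 genes at an unadjusted p under 0.05 and 0 to 74 genes called by DESeq2. All 4 genes had a difference above 0 from 70-79 μm to 80-89 μm, where they lay between 0.45 and 0.62, and all 4 had one below 0 from 90-99 μm to 100-109 μm, between -1.26 and -0.56. From 100-109 μm to 110-119 μm the 4 differences lay between 0.66 and 1.17, and from there to > 120 μm between -1.35 and -0.72.

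The steps into and out of 110-119 μm were not alike in the replicates. In replicate 1 the lowest and highest summed shares were 0.250% and 0.525% at 100-109 μm (n = 11), and 0.509% and 2.06% at 110-119 μm (n = 12). In replicate 2 they were 0.432% and 1.25% at 100-109 μm (n = 7), and 0.297% and 0.710% at 110-119 μm (n = 7). The mean went from 0.402% ± 0.0950 to 1.00% ± 0.473 (SD) in replicate 1 and from 0.686% ± 0.370 to 0.531% ± 0.182 (SD) in replicate 2. The pooled share of each of the 4 genes was higher at 110-119 μm in replicate 1 and lower in replicate 2. From 110-119 μm to > 120 μm the pooled summed share changed by -1.61 log2 units in replicate 1 and by 0.55 in replicate 2, where COX1 was at 1.06, ATP6 at 0.80, ATP8 at 0.29 and COX2 at -0.33. The summed macrophage markers, led by CSF1R, had medians of 128.4 CPM at 100-109 μm and 30.6 CPM at 110-119 μm. CSF1R fell by 1.39 ± 0.34 log2 units in this step (edgeR, adjusted p = 0.0396) and by 0.85 ± 0.21 from 70-109 μm to 110 μm and above (edgeR, adjusted p = 0.0116), and its part in the result was not tested. Leaving out 110-119 μm replicate 2 kept 1 sum in that group. The differences from 100-109 μm to 110-119 μm were then 1.96 for COX1, 1.62 for COX2, 1.52 for ATP6 and 2.00 for ATP8 in log2 units. Without 110-119 μm replicate 1, COX1, ATP6 and ATP8 had the opposite sign there.

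Oocytes with a high share of 1 mitochondrial gene were mostly high in the others. Pearson's r between log2 shares after removal of replicate means (n = 165 oocytes, each its own library, of unequal depth) was 0.82 for COX2 with ATP6, 0.83 for COX2 with ATP8 and 0.83 for ATP6 with ATP8. COX1 followed the others less closely, with r of 0.64 to COX2, 0.62 to ATP6 and 0.58 to ATP8. Of the counts on the 4 genes, COX1 held 36.1% ± 12.8 (SD, n = 165), from 7.08% to 72.0%, and ATP8 held 41.1% ± 10.2. COX2 held 13.5% ± 4.34 and ATP6 held 9.33% ± 2.91. The part of COX2 was 15.2% ± 4.70 (SD, n = 21) < 60 μm and 10.6% ± 3.13 (SD, n = 14) > 120 μm, with overlapping ranges, and this difference was not tested.

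The replicates, which differ in read length, were compared over the 8 size groups with an exact two-sided sign-flip permutation test on log2 ratios of pooled counts. The share of ATP8 was higher in replicate 2 in 7 of 8 groups by 0.60 ± 0.76 log2 units (SD, n = 8, exact p = 0.0781, adjusted over the 4 genes 0.3125). COX1, COX2 and ATP6 were each higher in 6 of 8 groups, by 0.40 ± 0.95, 0.30 ± 0.71 and 0.04 ± 0.77 log2 units (SD, n = 8, exact p = 0.297, 0.273 and 0.930). Of 6 ratios between the genes, that of ATP6 to ATP8 differed. It was lower in replicate 2 in 8 of 8 groups by 0.56 on the log2 scale (SD 0.29, n = 8, exact p = 0.0078125, the smallest that 256 sign patterns allow, adjusted over the 6 ratios 0.0469). The other 5 ratios had adjusted exact p-values between 0.258 and 0.758.

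Of the lines that carry the identifier of ATP8, the first held 8.05% ± 4.54 (SD, n = 165) of its counts. It held 4.89% ± 2.31 (SD, n = 21) < 60 μm and 11.4% ± 5.72 (SD, n = 14) > 120 μm. The first line relative to the second was lower in replicate 2 in 8 of 8 groups, with a mean log2 difference of -1.07 ± 0.54 (SD, n = 8, exact p = 0.0078125, adjusted over 3 tests 0.0234). Fitted apart, the second line had a slope of -0.15 ± 0.06 log2 units per 10 μm (edgeR over 15086 lines, adjusted p = 0.0452). The first line had a slope of -0.03 ± 0.06 and did not pass (edgeR, adjusted p = 0.690). The share of the first line had an r with diameter of 0.14 in replicate 1 (n = 97) and -0.40 in replicate 2 (n = 68), and the slopes of the lines were not tested against each other. Read length and the lines' annotation cannot be told apart from other differences between the replicates.

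**Figure D4:**
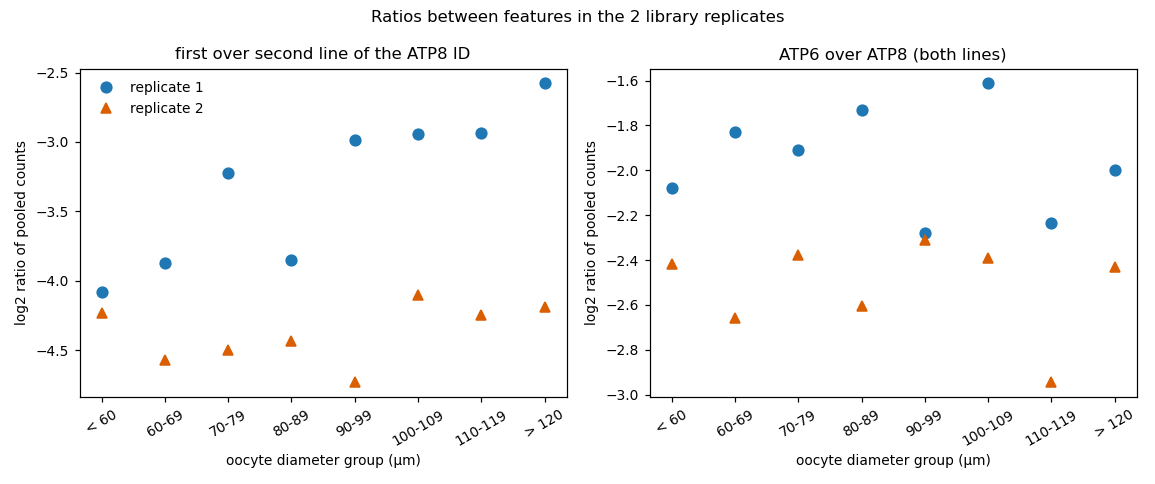
Log2 ratio of pooled counts by size group and replicate, for the first over the second line of ATP8 and for ATP6 over ATP8. Points are the 16 sums, coloured by replicate. In both panels replicate 2 lies below replicate 1 in 8 of 8 size groups.

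The proteins of COX1, COX2, ATP6 and ATP8 work in complexes whose other subunits are nuclear genes. Of 35 nuclear subunit names of complexes IV and V, 26 were paired with an identifier, and their summed share was 0.641% ± 0.162 (SD, n = 165). The mean was 0.744% ± 0.148 (SD, n = 21) < 60 μm and 0.650% ± 0.181 (SD, n = 14) > 120 μm, a ratio of 1.14, and 10 of the 14 largest oocytes lay under the median of the smallest ones. The ratio was 1.14 within replicate 1 (3 and 10 oocytes) and 1.02 within replicate 2 (18 and 4 oocytes). The r of this nuclear share with diameter was -0.07 (n = 165), 0.07 in replicate 1 and -0.20 in replicate 2. Its log2 value had an r of 0.18 with that of the mitochondrial sum, 0.07 in replicate 1 and 0.35 in replicate 2. Counts on the 4 mitochondrial genes were 2.13 ± 0.853 times those on the 26 nuclear genes < 60 μm (SD, n = 21) and 0.843 ± 0.447 times > 120 μm (SD, n = 14).

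Along diameter, 2 of the 26 nuclear subunit genes rose, 2 fell and 22 did not pass, beside 14.8% of all genes called as higher and 18.1% as lower, with a median slope of -0.03 against -0.02 for all genes. COX5A, an oxidase subunit, rose by 0.19 ± 0.04 log2 units per 10 μm (edgeR, adjusted p = 0.00047), and ATP5MC1, which encodes the ring subunit of ATP synthase, rose by 0.13 ± 0.03 (edgeR, adjusted p = 0.00266). ATP5MC2, another gene for the same ring subunit, fell by 0.20 ± 0.03 (edgeR, adjusted p = 3.57e-05), and COX8A, a small oxidase subunit, fell by 0.12 ± 0.03 (edgeR, adjusted p = 0.00621). The next in each direction were COX7A2L at 0.05 ± 0.03 and COX7A1 at -0.08 ± 0.04, which did not pass (edgeR, adjusted p = 0.211 and 0.0818). Between < 60 μm and > 120 μm the same 4 genes passed in the same directions, beside 9.36% of all genes called as higher and 9.80% as lower, with ATP5MC1 and COX5A both at 0.99, COX8A at -0.85 and ATP5MC2 at -1.44 log2 units. From 70-109 μm to 110 μm and above 2 of the 26 rose and 3 fell, beside 7.08% and 7.68% of all genes. From < 70 μm to 70-109 μm 0 rose and 1 fell, beside 5.13% and 4.37%. From 100-109 μm to 110-119 μm 2 rose and 0 fell, beside 3.88% of all genes called in either direction. The slope of COX2 (-0.26) lay below that of each of the 26 nuclear genes. Whether it differed from theirs was not tested.

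Assembly factors insert cofactors into these complexes or help their subunits join. Of 26 names 20 were paired, and along diameter 2 rose, 3 fell and 15 did not pass, beside the same 14.8% and 18.1% of all genes, with a median slope of -0.02. CMC2 rose by 0.22 ± 0.05 and ATPAF1, a chaperone of ATP synthase, by 0.12 ± 0.03 log2 units per 10 μm (edgeR, adjusted p = 0.00163 and 0.00689). COA8, COA1 and COX10, the last an enzyme of heme A synthesis, fell by 0.16 ± 0.04, 0.15 ± 0.03 and 0.12 ± 0.04 (edgeR, adjusted p = 0.00351, 0.00092 and 0.0179). COX20, which assists the maturation of the COX2 protein, had a slope of -0.13 ± 0.05 (edgeR, adjusted p = 0.0612), and COX15, another enzyme of heme A synthesis, had a slope of 0.11 ± 0.04 (edgeR, adjusted p = 0.0538). Neither passed. From 70-109 μm to 110 μm and above, 5 of these 20 assembly factors rose and 0 fell, beside 7.08% and 7.68% of all genes: CMC2 by 1.47, CMC1 by 1.00, COA4 by 0.91, ATP23 by 0.86 and COX15 by 0.73 log2 units. Between < 60 μm and > 120 μm 1 rose and 3 fell, beside 9.36% and 9.80% of all genes: CMC2 by 1.46, and COX20, COA8 and COA1 at -1.48, -1.26 and -1.01 log2 units. From < 70 μm to 70-109 μm 0 rose and 2 fell, COX10 at -0.77 and COA1 at -0.69, beside 5.13% of all genes called as higher and 4.37% as lower.

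**Figure D5:**
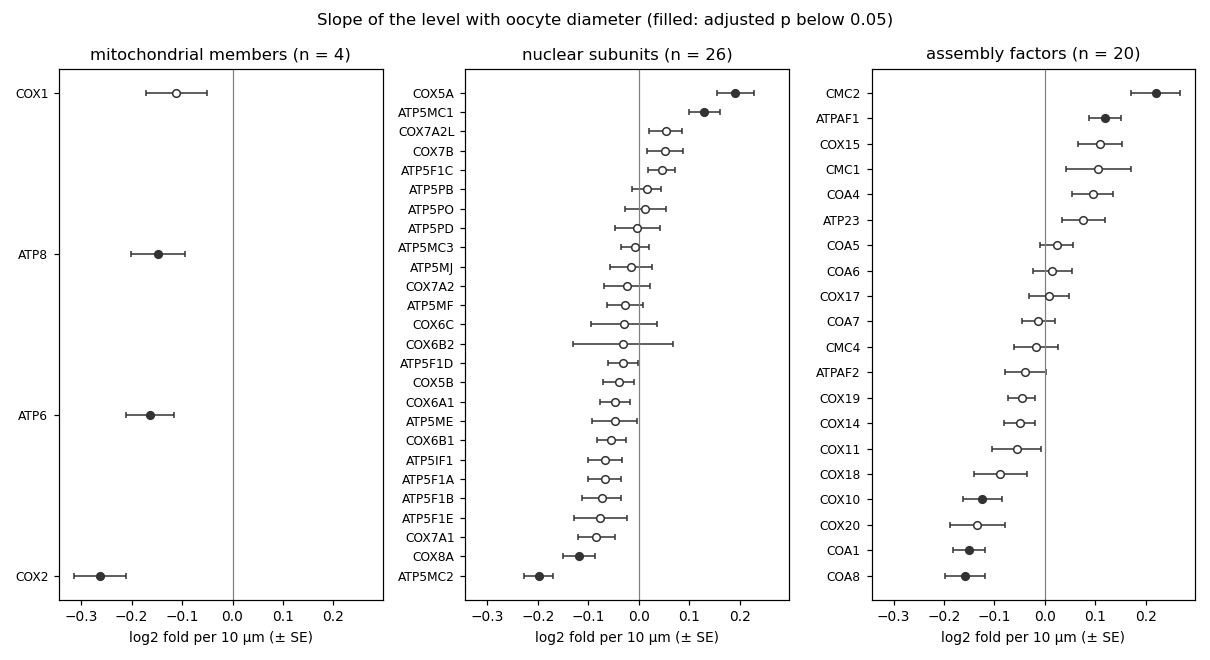
Slope per 10 μm of diameter in log2 units with its standard error, for the 4 mitochondrial genes, 26 nuclear subunits and 20 assembly factors of complexes IV and V, from edgeR on 16 sums. The 4 mitochondrial genes lie below 0, from -0.26 for COX2 to -0.11 for COX1, while each nuclear list has slopes on both sides of 0.

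Genes were looked for, among 14083 others, whose log2 level followed the log2 summed level of the 4 mitochondrial genes most closely. This was done over 165 oocytes after removal of replicate means, on CPM after edgeR's scaling and not on plain shares. The median r was 0.00. The first 10 places were held by identifiers whose symbol is not known from the lists used, led by ENSBTAG00000043558 (r = 0.87) and ENSBTAG00000043571 (r = 0.83). A symbol was known for 3608 of 21218 identifiers, from shortened lists, so that genes with a closer r may stand unnamed. Of genes with a symbol, CENPS came first (r = 0.67, place 11), followed by CHL1 (0.63), CHPT1 (0.62), CCDC91 (0.61) and ARID4B (0.61, place 33). The lowest were AURKC (r = -0.68), an oocyte kinase gene, ACCSL (-0.63) and CEP83 (-0.62). Of the 26 nuclear subunits 17 had an r above 0, with a median of 0.07, from -0.27 for ATP5F1D to 0.57 for COX6C. The r of the 4 genes with their own sum was 0.86 to 0.90, since each is part of it.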

How the data were processed

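The authors trimmed single-end Smart-seq2 reads of poly(A) RNA with Trim Galore 0.6.6, mapped them to ARS-UCD1.2 with HISAT2 and counted reads per gene in SeqMonk. They deposited raw counts for 179 oocytes. The authors analysed 165 of them, and the same 165 were used here. The other 14 enter the closing section only. The table held 23161 lines for 21218 identifiers, and lines of the same identifier were summed. Shares are percent of an oocyte's total. The genes and lists were chosen by name, with earlier results of these data known. Beside the 4 mitochondrial genes, the text names, in each list, the 3 highest and 3 lowest slopes, and the 5 highest and 3 lowest genes with a symbol by r. Other called genes of the lists were named after their values were seen. Counts were summed per size group and replicate and tested in edgeR 4.0.16 (R 4.3.3) with TMM scaling, filterByExpr (minimum count 10, minimum total 15), and a replicate block; standard errors are the log2 difference over the root of F. Sums of the same replicate deviated together in all 28 pairs of size groups (r 0.398 to 0.694), so the replicate was kept as a block. Fits were tested on simulated data. DESeq2 1.42.0 was an alternative. Other settings are given in the closing section. Exact tests used scipy 1.17.1.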

Additional observations from a re-analysis of the deposited data

Results flagged for a closer look

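In each size group and replicate of 4 to 10 oocytes, a gap of the highest or lowest oocyte to the next was set against Dixon's critical value. Of 40 sets of values, 5 exceeded it, against a nominal rate of about 1 in 20 that takes normally distributed values. The sets are not independent, since the summed share holds the 4 genes. How far 5 lies from chance was not tested. In replicate 2 at 80-89 μm, the same oocyte of 85.1 μm had a COX1 share of 1.70% (next 0.808%) and a summed share of 3.36% (next 1.95%). In replicate 2 at 90-99 μm, the highest COX2 share was 0.309% (next 0.150%). Above 120 μm, the highest COX1 share of replicate 1 was 0.417% (next 0.235%), and the lowest ATP8 share of replicate 2 was 0.115% (next 0.320%).

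From 100-109 μm to 110-119 μm the pooled summed share changed by 1.85 log2 units in replicate 1 and by -0.59 in replicate 2, with all 4 genes moving in opposite directions. A single oocyte supplied 52.9% of the counts of the sum of 100-109 μm in replicate 1, and the mean over oocytes went from 0.402% to 1.00% there. The difference between the replicates was not tested.

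Among the 14 oocytes that the authors did not analyse, 2 had a summed share above the highest analysed oocyte, both < 60 μm. They had 28.4% (replicate 1, a total of 49970 counts) and 40.2% (replicate 2, a total of 143505 counts).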

How the results depend on the processing

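COX2, ATP6 and ATP8 kept their direction along diameter and between < 60 μm and > 120 μm in all 8 alternatives and in all 16 fits that each left out 1 sum. Without the replicate block, 0 of the 4 genes were called between < 60 μm and > 120 μm (81 of 14087 genes in all) and 0 from < 70 μm to 70-109 μm, and along diameter ATP8 lost its call (edgeR, adjusted p = 0.117). With a count of 1, the number called from < 70 μm to 70-109 μm rose to 2 without the deepest oocyte of each sum, 2 with DESeq2, 3 with no filter on low counts, 3 with oocytes thinned to 250000 counts and 4 with single oocytes as units. The number of calls over all genes rose too, from 1338 of 14087 to 1945 of 13658, 2064 of 14087, 1607 of 17969, 1838 of 10835 and 4291 of 10993. From 100-109 μm to 110-119 μm it was 1 without the deepest oocytes, 1 with DESeq2 and 4 with single oocytes (1615, 1967 and 4062 genes in all, against 547), and from 110-119 μm to > 120 μm it was 2 with single oocytes (518 genes in all, against 1), where oocytes of a replicate are not independent. With all 179 oocytes, r of the summed share with diameter was -0.26 and the mean < 60 μm was 4.12%, and without the second ATP8 line that mean was 0.940%.

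Some small differences turned. From 70-109 μm to 110 μm and above, ATP8 stood at 0.043 without the deepest oocytes, 0.0222 with DESeq2, 0.0222 with RLE scaling and 0.24 with single oocytes, and ATP6 at 0.00053 with single oocytes. From < 60 μm to 60-69 μm, COX1 stood at -0.061 without the deepest oocytes, -0.39 with all 179 and -0.063 with single oocytes. The ATP6 share, replicate 2 over replicate 1, stood at -0.015 with a mean over oocytes and at -0.0073 after thinning.

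With each sum left out in turn, the number of the 4 genes called ran from 1 to 3 between < 60 μm and > 120 μm, 0 to 3 from < 70 μm to 70-109 μm, 0 to 3 from 70-109 μm to 110 μm and above, 0 to 4 from 100-109 μm to 110-119 μm, 0 to 3 from there to > 120 μm, and 1 to 4 along diameter. Log2 differences from 100-109 μm to 110-119 μm ran from -0.74 to 1.52 for ATP6, -0.083 to 2.00 for ATP8 and -0.33 to 1.96 for COX1. From there to > 120 μm they ran from -1.60 to 0.64, -1.89 to 0.18 and -1.66 to 0.61 for ATP6, ATP8 and COX1. From 70-109 μm to 110 μm and above they ran from -0.93 to 0.22, -0.65 to 0.41 and -0.95 to 0.22 for ATP6, ATP8 and COX1. From 80-89 μm to 90-99 μm they ran from -0.83 to 0.087 for ATP8 and -0.53 to 0.045 for COX1. From < 60 μm to 60-69 μm they ran from -0.37 to 0.082 for ATP6, -0.49 to 0.20 for ATP8, -0.13 to 0.67 for COX1 and -0.62 to 0.20 for COX2. The fits of single ATP8 lines, those without a line or without the deepest oocytes, and the values of < 60 μm against > 120 μm within replicates were chosen after seeing the data. The causes were not tested. The summed share moved with depth (r of 0.34 with log10 total counts, 0.30 in replicate 1 and 0.45 in replicate 2), and the part of depth was not tested beyond the thinning. Tests rested on 16 sums. A fit that left out 1 sum kept 1 sum in that size group, so that the spread behind its calls came from the other groups.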

Other observations

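Of the 14 oocytes left out by the authors, 5 had totals under 100000 counts. In the other 9 the summed share of COX1, COX2, ATP6 and ATP8 had a median of 1.74%, from 0.431% to 40.2%, and 8 of these 9 lay within the range of the 165 analysed oocytes.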
